A study of Mus musculus with 2 samples.

Results

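The genes described here were listed for the machinery by which one cell engulfs another that has died, measured in mouse cardiac myofibroblasts with and without knockdown of *Vgll3*. The 10 genes were chosen by name: *Mfge8*, *Gas6*, *Pros1*, *Axl*, *Mertk*, *Tyro3*, *Lrp1*, *Calcrl*, *Elmo1* and *Dock1*. All 10 were found among the 24532 genes of the count table and the 14158 genes of the TPM tables. The cells came from the hearts of C57BL/6 mice 3 days after myocardial infarction (MI), were the attached cells left after removal of CD45-positive leukocytes, and were cultured. Cultures were transfected with 12.5 nM siRNA by Lipofectamine RNAiMAX. A first culture received a control (siCtrl), the other si*Vgll3*, directed at *Vgll3* mRNA, and total RNA was taken after 72 h for poly(A)-selected libraries. Each condition is 1 library and the number of animals behind it is not given in the sources used here, so the differences below were not checked in replicates and carry no p-value. No dying cells were fed to these cultures and no uptake was measured, so the values are transcript levels and not engulfment.

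Clearance of dying cells starts when phosphatidylserine, a lipid normally kept on the inner face of the plasma membrane, appears on the outside of a dying cell. Secreted bridging proteins bind this lipid on one side and a receptor of the engulfing cell on the other. MFG-E8 (*Mfge8*) bridges to αv integrins, whereas the vitamin K-dependent proteins GAS6 (*Gas6*) and protein S (*Pros1*) bridge to TAM receptors. TAM receptors are the receptor tyrosine kinases TYRO3, AXL and MERTK, and which ligand acts on which of them was not examined here. LRP1 is a large endocytic receptor that can work with calreticulin. Downstream, ELMO1 and DOCK1 form an exchange factor that activates RAC1, whose actin remodelling draws the dying cell in. *Calcrl* encodes the calcitonin receptor-like receptor, which binds adrenomedullin and CGRP together with RAMP proteins. It is not known as an engulfment receptor and may not belong with the other 9 genes, and calreticulin is encoded by another gene, *Calr*. *Calcrl* is kept because the 10 genes were chosen by name, and counts are also given without it. In the infarcted heart, macrophages are the main engulfing cells, and myofibroblasts are also known to take up dying cells with the help of MFG-E8.

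The knockdown was visible in *Vgll3* itself, with 201.8 TPM falling to 84.0 TPM. TPM is transcript abundance scaled to gene length and library size, so genes can be compared within a library. M is the log2 of si*Vgll3* TPM over siCtrl TPM, and A is the log2 of the mean TPM. A gene is called lower at M below −0.5 and higher at M above 0.5, with A above 0. Intervals of M are exact 95% intervals of the read ratio. All intervals given here cover counting error only. The libraries held 140815237 reads in siCtrl and 125789276 in si*Vgll3*, and each of the 10 genes had between 1171 and 193669 reads per library. All 10 fibroblast markers had A above 0 (6 lower, 1 higher), as did all 6 myofibroblast markers (1 lower, 2 higher), with *Acta2* at 3296 TPM in the control and 3866 TPM after knockdown. Of 16 macrophage markers, 9 had no read in either library, including *Ptprc* (CD45), *Adgre1* and *Itgam*, and 4 had A above 0, with 1 lower (*Lyz2*) and 2 higher (*Csf1r* and *Cd14*). The 16 summed to 15.6 and 8.79 TPM, and without *Lyz2* to 4.67 and 5.65 TPM. The 10 endothelial markers summed to 34.8 and 31.7 TPM, and without *Tek* to 15.3 and 18.3 TPM. Of the 5 with A above 0, 1 was lower (*Tek*) and 0 higher, with a median M of 0.42. Of 8 cardiomyocyte markers, 6 had no read in either library, and *Tnnt2* had 60.0 and 10.4 TPM. Mural cell markers summed to 16.2 and 9.51 TPM, and without *Notch3*, the only one with A above 0, to 2.11 and 1.54 TPM. The part of other cells in the differences below was not tested. In bulk RNA, fewer cells of a type and less RNA per cell cannot be told apart.

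Of the 10 genes, 2 were lower in si*Vgll3* (*Gas6* and *Calcrl*) and 0 were higher. Without *Calcrl*, 1 of the 9 engulfment genes was lower. Over all 11754 genes with A above 0, 11.4% were lower and 5.73% were higher. The change in *Gas6* was the only one of the 10 whose whole interval lay beyond the threshold of −0.5, a position held by 8.31% of all genes. The whole interval lay above 0.5 for 0 of the 10 and for 3.76% of all genes. M was below 0 for 6 of the 10 and above 0 for 4, against 57% below 0 over all genes. The interval lay wholly below 0 for 6 (45.8% of all genes), wholly above 0 for 3 (32.4% of all genes) and held 0 for 1, *Pros1*. The median M was −0.24 for the 10 and −0.20 without *Calcrl*, against −0.05 over all genes.

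**Figure D1:**
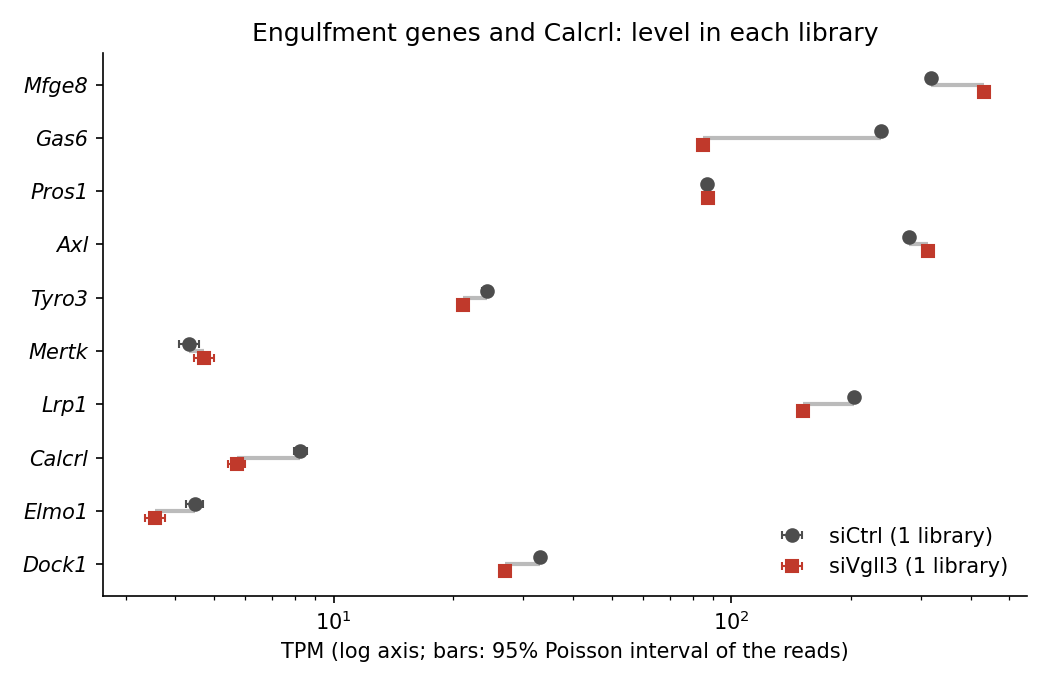
TPM of each of the 10 genes in the siCtrl and si*Vgll3* libraries on a log axis, 1 point per library, with 95% counting intervals. *Gas6* moved from 238 to 85.0 TPM, and *Mfge8* was the highest of the 10 in both libraries.

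The bridging proteins moved apart from one another. *Gas6* (chromosome 8, 13465374 to 13494490, minus strand) had 238 TPM from 39402 reads in siCtrl and 85.0 TPM from 13023 reads in si*Vgll3*, so that 35.7% of the siCtrl level was left. Its M of −1.49 (interval −1.51 to −1.46) was the 146th lowest of the 11754 genes. *Tmem255b* lies over it on the other strand, and whether counting used strand is not given in the sources used here. *Mfge8* (chromosome 7, 79133768 to 79149060) had 318 TPM in siCtrl against 432 TPM in si*Vgll3*. Its M of 0.44 (interval 0.42 to 0.46) did not reach the threshold for a higher gene. It was nonetheless above the M of 93.3% of all genes. *Pros1* (chromosome 16, 62854307 to 62929346), the other TAM ligand, had 86.9 TPM in siCtrl against 87.3 TPM in si*Vgll3*. Its M of 0.01 has an interval, −0.02 to 0.04, that holds 0.

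The balance between both TAM ligands therefore differed between the libraries. *Gas6* had 2.74 times the TPM of *Pros1* in siCtrl (interval 2.69 to 2.79) and 0.974 times in si*Vgll3* (0.952 to 0.996). The M of *Gas6* was lower than that of *Pros1* by a log2 difference of −1.49 (interval −1.53 to −1.45). Summed TPM of the pair was 325 in siCtrl and 172 in si*Vgll3*, of which *Gas6* made up 73.3% and 49.3%. With *Mfge8* added, the 3 bridging transcripts summed to 642 and 604 TPM. Their sum thus had an M of −0.09, while the share of *Mfge8* in it was 49.4% in siCtrl and 71.5% in si*Vgll3*. The share of *Gas6* was 37.1% and 14.1%.

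**Figure D2:**
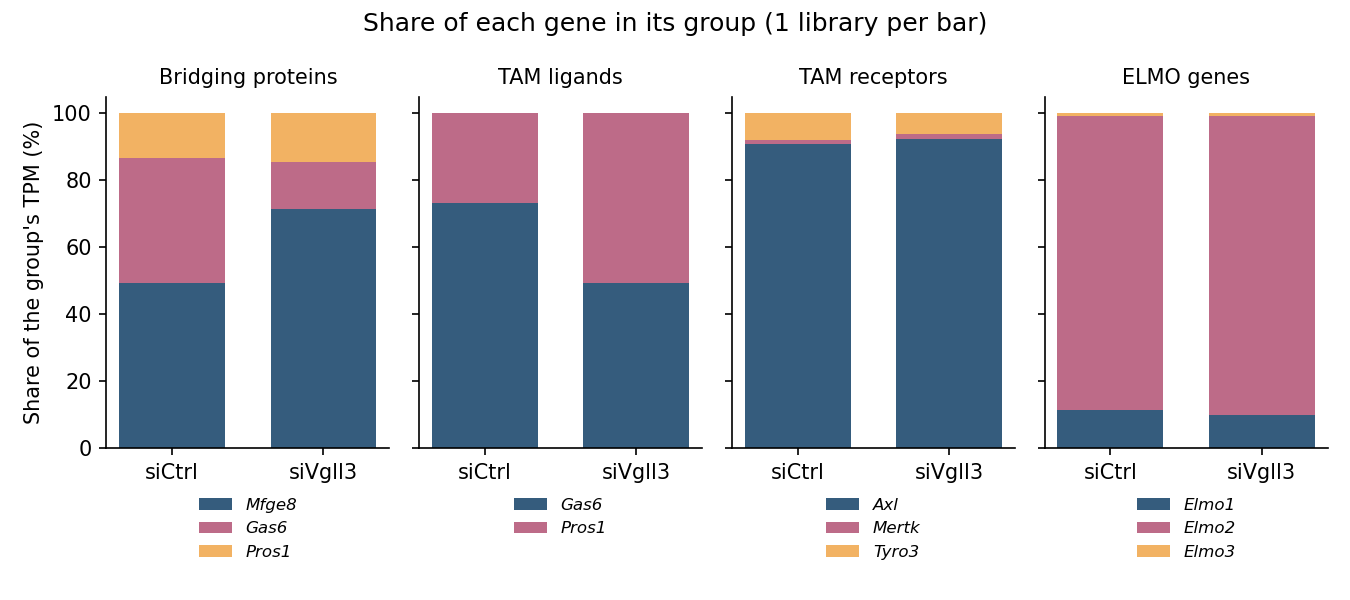
Share of each gene in the summed TPM of its group, 1 bar per library. *Gas6* made up 37.1% of the 3 bridging transcripts in siCtrl and 14.1% in si*Vgll3*, whereas the shares of the 3 TAM receptors differed little.

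The promoters of the 3 bridging genes and of *Axl* are shown because these genes share a pathway and yet differed in direction and size. Sequences are the 250 bases before the RefSeq start on GRCm38.p6, the assembly also called mm10, written 5′ to 3′ along the gene, with the GC box (GGGCGG or CCGCCC) and the letters GGAATG or CATTCC, the core bound by TEAD factors, in capitals. VGLL3 is a cofactor of TEAD transcription factors. In cardiac myofibroblasts, the study saw no effect of *Tead1* siRNA on fibrotic gene expression.
*Gas6* promoter, chr8:13494536-13494785 (−): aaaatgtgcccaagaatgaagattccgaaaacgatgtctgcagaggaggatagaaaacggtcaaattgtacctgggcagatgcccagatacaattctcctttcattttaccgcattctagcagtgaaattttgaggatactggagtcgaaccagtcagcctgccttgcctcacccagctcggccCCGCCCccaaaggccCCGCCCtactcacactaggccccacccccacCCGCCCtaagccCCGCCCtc
*Mfge8* promoter, chr7:79149061-79149310 (−): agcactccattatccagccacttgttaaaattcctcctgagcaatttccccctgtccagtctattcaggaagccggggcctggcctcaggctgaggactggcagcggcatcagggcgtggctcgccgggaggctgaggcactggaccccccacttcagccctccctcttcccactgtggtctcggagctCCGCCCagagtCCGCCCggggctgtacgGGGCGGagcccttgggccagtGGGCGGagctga
*Pros1* promoter, chr16:62854057-62854306 (+): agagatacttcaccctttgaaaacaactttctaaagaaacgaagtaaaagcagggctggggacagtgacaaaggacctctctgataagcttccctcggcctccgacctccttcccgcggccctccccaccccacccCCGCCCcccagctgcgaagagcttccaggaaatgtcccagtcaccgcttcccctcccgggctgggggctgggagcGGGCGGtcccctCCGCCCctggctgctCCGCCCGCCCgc
*Axl* promoter, chr7:25788734-25788983 (−): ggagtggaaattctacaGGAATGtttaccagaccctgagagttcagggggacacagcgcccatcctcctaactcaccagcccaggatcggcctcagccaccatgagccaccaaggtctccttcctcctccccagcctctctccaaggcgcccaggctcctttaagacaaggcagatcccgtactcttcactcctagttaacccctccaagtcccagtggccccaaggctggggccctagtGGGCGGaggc
A GC box stood in at least 1 promoter window of each of the 10 genes, in 10 of 11 windows (250 bases before the start and 50 after it, *Elmo1* having 2 starts), against 35.7% of 32851 mouse promoters. The mouse promoters were not matched to the 10 genes for GC content or expression. *Gas6* and *Mfge8* held 4 GC boxes each and *Pros1* held 5. Any part of the GC box in the differences was not tested. The median GC content of all promoters was 52.7%, and the windows of the 10 genes ran from 46.0% to 73.3%. The TEAD letters stood in the windows of *Axl*, 233 bases before the start, and *Dock1*, at base 22 counted from the start, against 14.7% of all promoters. They were absent from these windows of *Gas6*, *Mfge8*, *Pros1* and the rest of the 10 genes. These are matches of letters within a short window and not measured binding.

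The TAM receptors differed much less than their ligand *Gas6*. *Axl* (chromosome 7, 25757273 to 25788705), the most abundant of the TAM receptors, had 280 TPM in siCtrl against 312 TPM in si*Vgll3*, with an M of 0.15 (interval 0.14 to 0.17). *Tyro3* (chromosome 2, 119797733 to 119818104) had 24.3 and 21.2 TPM, with an M of −0.20 (interval −0.25 to −0.14). *Mertk* (chromosome 2, 128698956 to 128802894), the TAM receptor best known from macrophages, had 4.33 and 4.72 TPM, with an M of 0.12 (interval 0.01 to 0.24). None of these values passed a threshold. *Axl* made up 90.7% of TAM receptor TPM in siCtrl and 92.3% in si*Vgll3*, *Tyro3* 7.86% and 6.26%, and *Mertk* 1.40% in both. *Axl* exceeded *Mertk* 64.7-fold in siCtrl and 66.1-fold in si*Vgll3*, a log2 difference of 0.03 whose interval (−0.08 to 0.15) holds 0. *Axl* exceeded *Tyro3* 11.5-fold and 14.8-fold, a log2 difference of 0.35 (interval 0.30 to 0.41). Relative to *Axl*, *Gas6* stood at a TPM ratio of 0.849 in siCtrl and 0.272 in si*Vgll3*. *Mertk* had 1233 and 1244 reads. Of the macrophage markers, 9 of 16 had no read in either library, while *Lyz2* had 738 and 196 reads and *Csf1r* 320 and 419. The part of macrophages in the *Mertk* level was not tested.

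**Figure D3:**
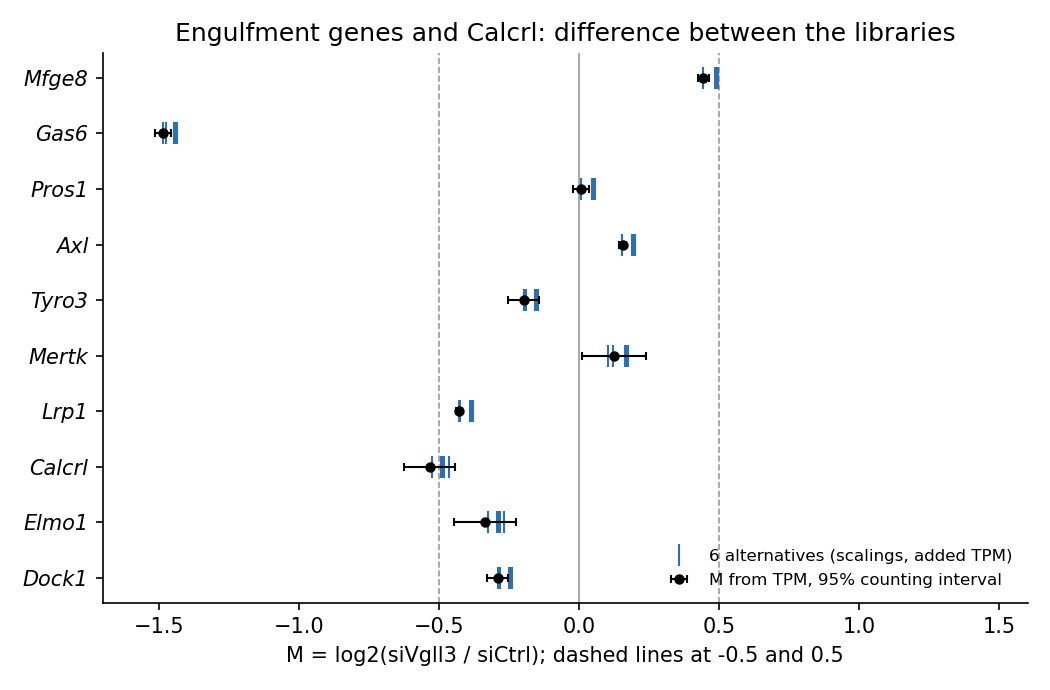
M of each of the 10 genes with its 95% counting interval, blue ticks for 6 alternatives of scaling or added TPM, and dashed lines at −0.5 and 0.5. *Gas6* stands far below the others at −1.49, the interval of *Calcrl* crosses −0.5, and *Mfge8* at 0.44 is the highest.

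*Lrp1* had 204 TPM in siCtrl against 151 TPM in si*Vgll3*, from 193669 and 133199 reads. Its M of −0.43 (interval −0.44 to −0.42) left 74.3% of the siCtrl level and did not reach the threshold. *Lrp1* lies on chromosome 10 at 127538161 to 127621148 and had the highest TPM of its receptor family in these cells, with 33.2% of the family's TPM in siCtrl and 34.0% in si*Vgll3*. The summed TPM of the family was 613 and 445. In a list of 14 relatives and partners of *Lrp1*, 12 had A above 0, of which 6 were lower and 0 higher, with a median M of −0.49. Among the lower genes, *Lrp4* had 2.78 and 1.31 TPM (M −1.08) and *Vldlr*, which binds apolipoprotein E and reelin, had 8.72 and 4.94 TPM (M −0.82). The chaperone of the family, *Lrpap1*, had 67.1 and 56.1 TPM, and *Lrp1* exceeded it 3.03-fold in siCtrl and 2.70-fold in si*Vgll3*.

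Among 20 ligands and adaptors of LRP1, 17 had A above 0, with 4 lower, 3 higher and a median M of −0.06. The lower ligands included *Apoe*, a lipid carrier, at 16.8 and 5.91 TPM (M −1.51), and *Lpl*, a lipase, at 112 and 48.9 TPM (M −1.20). *Mmp2* (M −0.71) and *Serping1* (M −1.12) were the other lower genes. The higher genes included *Plaur* (M 0.79) and *Hsp90aa1* (M 0.56). *Calr*, the calreticulin gene, had 2625 and 2173 TPM (M −0.27), so calreticulin mRNA exceeded *Lrp1* mRNA in both libraries.

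*Calcrl* (chromosome 2, 84330626 to 84425411) had 8.26 TPM from 2497 reads in siCtrl and 5.70 TPM from 1596 reads in si*Vgll3*, leaving 69.1%. Its M of −0.53 was past the threshold, but the interval (−0.63 to −0.44) crosses −0.5, and with CPM in place of TPM it was −0.48 and no longer called. Other scalings also ended the call. *Calcrl* is prominent in endothelial cells, and the endothelial marker *Tek* was at 19.5 and 13.4 TPM while *Cdh5* was at 2.13 and 3.01 TPM. Of 10 partner and ligand genes, 6 had A above 0, with 2 lower (*Ramp2* and *Adm2*) and 1 higher (*Ramp3*). *Ramp2*, which makes an adrenomedullin receptor of it, had 4.75 and 2.30 TPM (M −1.04). *Ramp3* had 0.825 and 1.93 TPM (M 1.22), from 65 and 139 reads. *Ramp1*, the CGRP receptor subunit, had 48 and 8 reads and is outside the TPM tables. The ratio of *Calcrl* to *Ramp2* was 1.74 in siCtrl and 2.48 in si*Vgll3*. The ligand gene *Adm* had 330 and 271 TPM (M −0.28), far above the receptor in both libraries.

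*Elmo1* and *Dock1* encode the partners of the RAC1 exchange factor. *Elmo1* (chromosome 13, 20090596 to 20608353) had 4.48 TPM from 1595 reads in siCtrl and 3.55 TPM from 1171 reads in si*Vgll3*, with an M of −0.33 (interval −0.44 to −0.23). *Dock1* (chromosome 7, 134670654 to 135173639) had 33.0 and 27.0 TPM, with an M of −0.29 (interval −0.33 to −0.26). Neither passed the threshold, and their M values differed by −0.04 with an interval (−0.16 to 0.07) that holds 0. *Elmo1* stood at 0.136 times the TPM of *Dock1* in siCtrl and 0.132 times in si*Vgll3*. *Elmo2* was the main ELMO gene, with 87.7% and 89.4% of the family's TPM, and *Elmo1* held 11.4% and 9.84%. In the DOCK family *Dock1* held 31.3% and 25.6%. *Dock5*, of the same subfamily as *Dock1*, was higher at 5.91 and 9.26 TPM (M 0.65), so *Dock1* exceeded it 5.59-fold in siCtrl and 2.91-fold in si*Vgll3*. Of 7 other DOCK genes with A above 0, *Dock5* was the 1 higher and *Dock10* (M −1.28) the 1 lower. The summed DOCK transcripts were at 106 and 105 TPM.

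**Figure D4:**
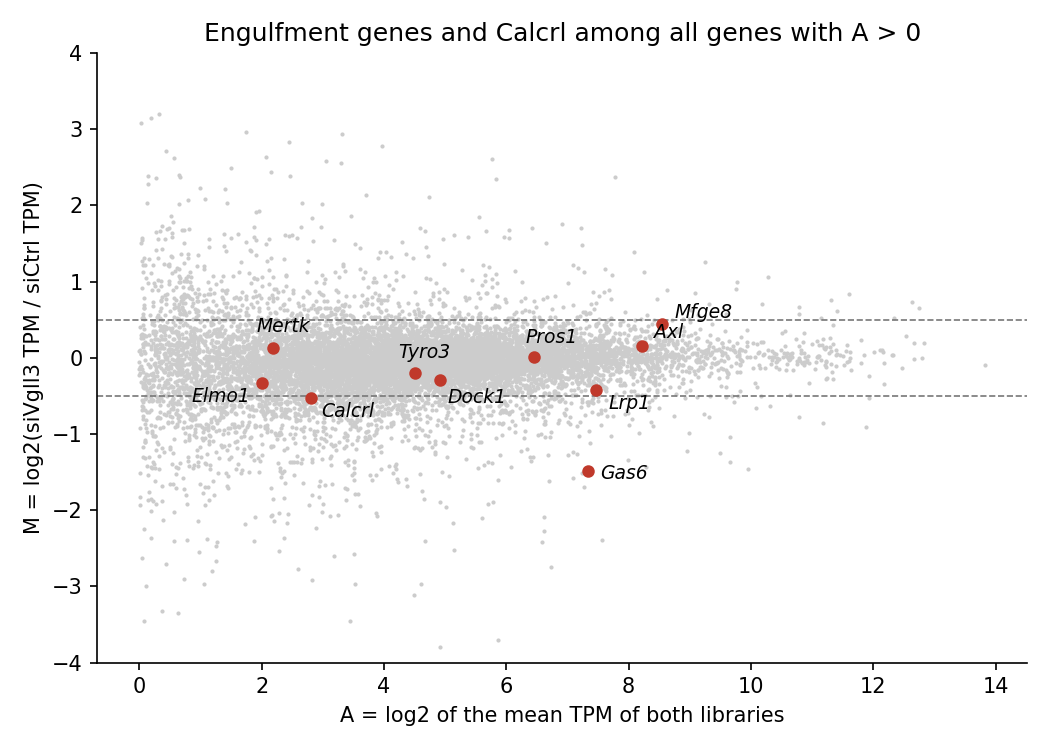
M against A for the genes with A above 0 in grey, with the 10 genes named and 7 genes beyond the M axis not drawn. *Gas6*, at M −1.49, has the 146th lowest M of the 11754 genes, and the other 9 lie between −0.53 and 0.44.

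Within siCtrl the order of levels ran from *Mfge8*, *Axl*, *Gas6*, *Lrp1* and *Pros1* down to *Dock1*, *Tyro3*, *Calcrl*, *Elmo1* and *Mertk*. Only *Elmo1* and *Mertk* had overlapping intervals. In si*Vgll3* *Gas6* was at place 5, behind *Lrp1* and *Pros1*. Its interval overlapped that of *Pros1*, although the ratio of *Gas6* to *Pros1* was 0.974 with an interval of 0.952 to 0.996. *Mertk* was above *Elmo1* there, at 4.72 against 3.55 TPM. Among all genes of the TPM table, *Gas6* moved from rank 685 to rank 1955, and *Mfge8* from 513 to 361. Secreted ligands and their main receptors were thus among the more abundant transcripts, and *Elmo1*, *Mertk* and *Calcrl* among the scarcer.

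Other genes, from 11 lists of engulfment genes and 1 of *Calcrl* partners that exclude the 10 genes, comprised 193 symbols, of which 155 had A above 0. Of these, 25 were lower (16.1%) and 15 higher (9.68%), against 11.4% lower and 5.73% higher over all genes. Without the *Calcrl* partners, 149 of 183 had A above 0, with 23 lower (15.4%) and 14 higher (9.40%). The median M was −0.05 with or without them, as over all genes to 2 decimals. Of 11 other engulfment receptor genes with A above 0, 3 were lower (*Itgb3*, *Megf10* and *Scarb1*) and 3 higher (*Olr1*, *Cd14* and *Cd93*). The integrin receptors of MFG-E8 are among them. *Itgav* had 217 and 215 TPM (M −0.01), *Itgb5* 441 and 328 TPM (M −0.43), and *Itgb3* was lower at 21.5 and 12.9 TPM (M −0.74). Among 9 other bridging and opsonin genes with A above 0, 1 was lower and 3 higher. *Edil3*, a relative of MFG-E8, was lower at 1.74 and 0.367 TPM (M −2.24), and *Lgals3* was higher at 40.0 and 131 TPM (M 1.71), with *Thbs1* (M 0.57) and *Ptx3* (M 0.90). In the RAC1 pathway, 2 of 23 genes were lower (*Tiam1*, M −0.54, and *Vav3*, M −0.51) and 0 higher. Of 29 phagosome and lysosome genes, 2 were lower (*Ctsd*, M −0.77, and *Dnase2a*, M −0.84) and 1 was higher (*Rab5c*, M 0.70). Of 13 genes for vitamin K-dependent carboxylation, shedding and signalling of the TAM system, 0 were lower and 1 was higher, *Pik3r1* (M 0.86).

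**Figure D5:**
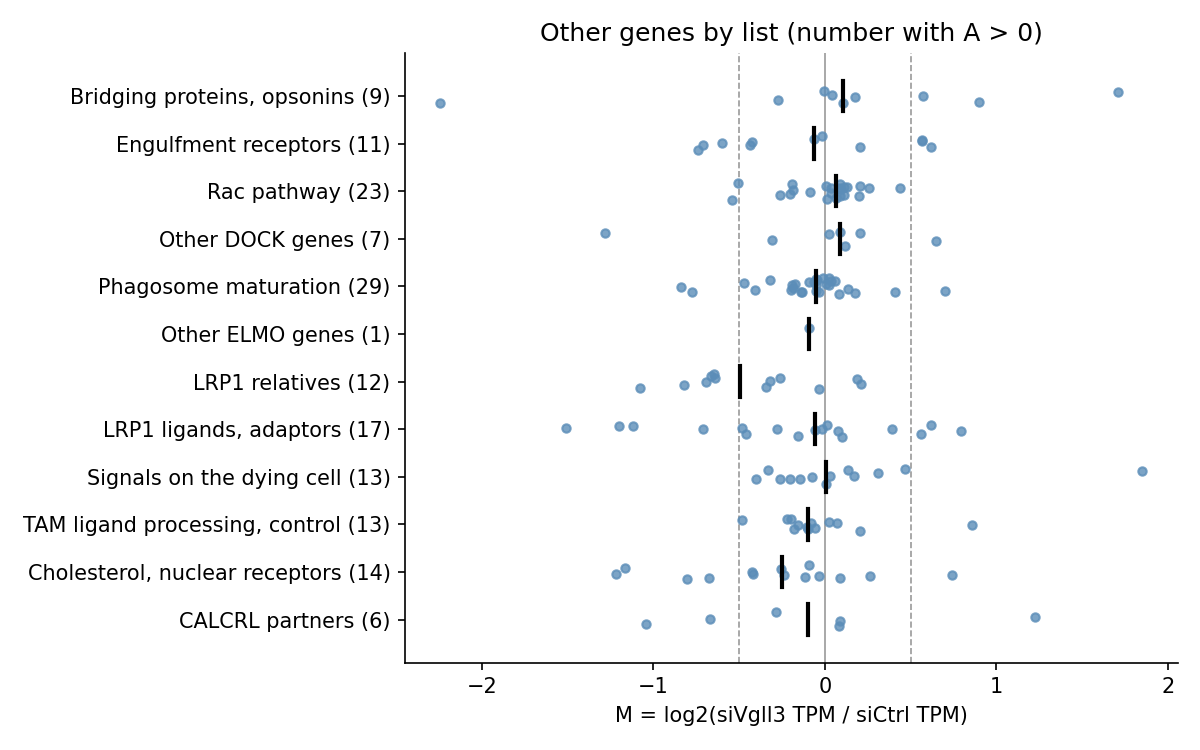
M of the other genes by list, *Calcrl* partners included, 1 point per gene with A above 0, black bars at the list medians. Of the 155 points, 115 lie between the dashed lines at −0.5 and 0.5, and the relatives of *Lrp1* have the lowest median, −0.49.

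The miRNA family miR-29 was examined because the study also examined it. The mature mouse sequence from RefSeq is shown with its seed, bases 2 to 8, in capitals.
mmu-miR-29b-3p: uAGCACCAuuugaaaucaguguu
The 3′ UTR searched was that of the transcript with the longest coding sequence of each gene. The matching site, TGGTGCT, was in the 3′ UTR of 14.3% of 10923 genes with A above 0 and such a UTR. It was in the 3′ UTR of 0 of the 10 genes. This says only that these letters are not in those windows.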

How the data were processed

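mRNA was sequenced from 2 cultures of mouse cardiac myofibroblasts, 1 library per condition. The authors prepared TruSeq Stranded mRNA libraries for a NovaSeq instrument. Trimmomatic removed short and poor reads, HISAT2 aligned the rest to mm10, and StringTie quantified known genes. Versions, and whether counting used strand, are not given in the sources used here. The authors deposited raw counts per gene and TPM, normalised for length and library size.

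M and A were computed from deposited TPM with nothing added. Intervals of M are 95% Clopper-Pearson intervals of the read ratio, moved onto the TPM ratio. Those of ratios between genes and of differences in M are 95% normal intervals on the log ratio. Those of single TPM values are 95% Poisson intervals of the reads. On Poisson counts simulated for the 11754 genes, the intervals of M held the true change for 95.5%. Poisson counting is what these intervals assume and no variation between cultures was simulated, so this checks the computation only. Genes listed at 0 TPM in either library have no M. edgeR 4.0.16 and DESeq2 1.42.0 were used for scaling only. Positions came from GENCODE for GRCm38 and promoters from RefSeq. *Gas6*, *Mertk*, *Lrp1*, *Elmo1* and *Dock1* overlap other annotated genes. The 10 genes and the lists were chosen with earlier results of these data known. From each list of other genes, the 2 highest in TPM and up to 2 with the largest M beyond the threshold (at least 50 reads) could be named, with family relatives, and some of these are not reported here. Marker genes and single members of short counts were named after their values were seen. Alternatives were CPM, TMM, DESeq2 size factors, centred M, added TPM, other filters and other thresholds.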

Additional observations from a re-analysis of the deposited data

How the results depend on the processing

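The direction of M was the same for all 10 genes under the 60 alternative values computed (6 settings per gene, by scaling and by TPM added). The largest shift was 0.07, and 24 of the 60 lay outside the gene's own counting interval. M of *Pros1* was 0.06 with CPM and 0.05 with TMM, above its interval of −0.02 to 0.04, which was computed for TPM only. M of *Gas6* ranged from −1.49 to −1.43 and M of *Mfge8* from 0.44 to 0.50. The count of the 10 genes called lower, 2 in the main analysis, was 1 with CPM, TMM, DESeq2 size factors, centred M, 1 TPM added, a threshold of 1 on M, or the whole interval beyond 0.5. *Gas6* was the one kept and *Calcrl* the one lost. *Calcrl* is not known as an engulfment gene, and leaving it out, an alternative chosen after seeing the data, also gave 1. Over all genes, 1341 of 11754 were lower in the main analysis. That count became 1182 of 11806 with CPM, 1203 of 11807 with TMM and 1210 of 11807 with DESeq2 size factors. Among the 11754, it was 1170 with centred M and 1068 with 1 TPM added. It was 384 with a threshold of 1 and 977 with the whole interval beyond 0.5. With no filter on A it was 2103 of 14149. The 674 higher genes became 1159 of 13492 with at least 10 reads in each library and 393 of 9938 with A above 2. They became 1428 of 14149 with no filter on A. Of the 11754 genes, 207 were higher with a threshold of 1 and 442 with the whole interval above 0.5. No paired analysis was possible because there is only 1 library for each siRNA. Depth limits *Elmo1*, *Mertk* and *Calcrl* most, and no interval covers variation between cultures.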

Other observations

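Engulfing cells raise cholesterol export and change nuclear receptor activity when they digest a meal. Of 14 genes for these steps, all had A above 0, 4 were lower, 1 was higher and the median M was −0.25. *Mylip*, a ubiquitin ligase, was lower at 10.5 and 4.53 TPM (M −1.22), and *Ucp2*, a mitochondrial carrier, was lower at 11.1 and 4.93 TPM (M −1.17). *Abca7* (M −0.68) and *Nr1h3* (M −0.80) were the other lower genes and *Pparg* (M 0.74) the higher one. *Slc2a1*, a glucose transporter, had 102 and 122 TPM (M 0.26). These cultures were not given dying cells.

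Of 13 genes with A above 0 that display or mask signals of dying cells, 0 were lower and 1 was higher. The higher gene was *Cd24a*, an anti-engulfment surface glycoprotein, at 20.3 and 73.1 TPM (M 1.85). *Tmem30a*, a subunit of the flippases that keep phosphatidylserine inside, had 118 TPM in both libraries (M 0.01).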
